A study of Homo sapiens with 688 samples.

Results

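The compounds described here are 5 plant-derived or plant-type small molecules: celastrol, dihydrocelastrol, pristimerin, a methoxychalcone and 7-desacetoxy-6,7-dehydrogedunin. They belong to, or are related to, compounds that are known or thought to react with protein thiols. They were taken as the wells of U87 cells whose drug label contained celastr, pristimerin, chalcone, withaferin or gedunin in any letter case. No label contained withaferin, and the rule found 10 wells among the 688 samples of the series, of which 384 were U87 wells. U87 is an established line of human glioblastoma cells. PLATE-Seq is a 3′-end RNA-Seq method in which polyadenylated RNA is captured and barcoded in each well of a plate before all wells are pooled. Each compound was present in 1 well of plate A and in 1 well of plate B, at the same well number on both, so that its wells also shared a barcode. The doses were 8.3691 µM for celastrol (well 31), 9.1864 µM for dihydrocelastrol (well 91), 0.85501 µM for pristimerin (well 55), 9.8678 µM for the methoxychalcone (well 67) and 2.0009 µM for the gedunin derivative (well 44), all for 24 h. The doses had been set by the study so that each compound slowed growth only modestly. The methoxychalcone is labelled 4 -METHOXYCHALCONE, which leaves the ring that carries the methoxy group unsettled, and it is called 4-methoxychalcone below. The controls were 4 wells with the vehicle DMSO and 4 untreated wells, with 2 of each on each plate, and the wells of the 87 other compounds on the same plates, 1 on each plate. Cells had been cultured in 384-well format, and lysates of a pair of culture wells were pooled into each library. Nothing in the labels or methods says that plates A and B came from separate cultures. P-values against DMSO therefore measure the spread between wells, which may be technical. Those against the other compound wells also hold the spread between compounds.

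Celastrol and pristimerin are quinone methide triterpenes, and pristimerin is the methyl ester of celastrol. Dihydrocelastrol is the reduced form of celastrol. A chalcone is an unsaturated ketone that links a pair of aromatic rings, and gedunin is a limonoid of the neem family. Unsaturated carbonyl groups of this kind can bind cysteine residues. Whether dihydrocelastrol, as a reduced form, keeps such reactivity was not measured here. Cells are known to answer thiol stress and misfolded protein through HSF1, a transcription factor that binds heat shock elements and drives chaperone genes such as HSPA1A, HSPA1B and DNAJB1. They answer electrophiles through NRF2, which is released from KEAP1 when cysteines of KEAP1 are modified and then drives antioxidant genes such as HMOX1, NQO1 and AKR1C1 from antioxidant response elements. NF-kB, which drives inflammatory genes and its own inhibitor NFKBIA from kB sites, is known to be inhibited by celastrol-type compounds. Whether each compound was accompanied by these responses in U87 cells was asked by comparing its wells with the DMSO wells and with the other compound wells of the same plates.

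The promoter stretches below are shown because their genes belong to the responses described here and hold the motif of the factor that is known to drive them. Sequences are from RefSeq on GRCh38.p14, run from 5′ to 3′ on the strand of the gene, and come from the 250 bases before the gene start. The first 5 are genes that rose with 4-methoxychalcone, and the capitals mark heat shock elements of 3 units, TTCNNGAANNTTC or its reverse complement GAANNTTCNNGAA. They were HSPA6 (chr1:161524441-161524503, plus strand), HSP90AB1 (chr6:44247753-44247868, plus strand), HSP90AA1 (chr14:102087095-102087157, minus strand), HSPD1 (chr2:197500043-197500090, minus strand) and CHORDC1 (chr11:90223062-90223134, minus strand).
HSPA6: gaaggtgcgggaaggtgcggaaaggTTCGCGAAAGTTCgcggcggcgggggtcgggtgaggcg
HSP90AB1: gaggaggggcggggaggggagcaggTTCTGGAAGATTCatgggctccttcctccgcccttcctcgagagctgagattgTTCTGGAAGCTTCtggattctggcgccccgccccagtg
HSP90AA1: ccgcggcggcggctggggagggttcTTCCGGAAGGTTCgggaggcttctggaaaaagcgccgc
HSPD1: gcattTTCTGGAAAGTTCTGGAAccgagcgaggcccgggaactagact
CHORDC1: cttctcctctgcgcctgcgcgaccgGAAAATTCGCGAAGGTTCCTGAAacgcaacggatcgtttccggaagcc
This element was present in 8 of the 26 heat shock genes found in the promoter table (30.8%) and in 152 of all 27305 genes of the table (0.557%). It was present in 0 of 24 NRF2 targets and in 0 of 13 NF-kB targets. A shorter element of 2 units was present in 17 of the 26 heat shock genes (65.4%) and in 14.0% of all genes. The next 4 are genes that fell with dihydrocelastrol, NFKBIA (chr14:35404796-35404855, minus strand), CXCL3 (chr4:74038733-74038793, minus strand), IL6 (chr7:22727102-22727161, plus strand) and CXCL2 (chr4:74099238-74099298, minus strand), with kB sites, GGGANNTTCC or its reverse complement GGAANNTCCC, in capitals.
NFKBIA: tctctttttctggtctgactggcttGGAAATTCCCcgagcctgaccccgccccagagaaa
CXCL3: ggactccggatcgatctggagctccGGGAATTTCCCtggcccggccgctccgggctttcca
IL6: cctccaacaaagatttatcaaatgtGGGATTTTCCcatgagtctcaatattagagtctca
CXCL2: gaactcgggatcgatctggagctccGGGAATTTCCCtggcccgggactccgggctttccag
A kB site was present in 8 of the 13 NF-kB targets in the table (61.5%) and in 472 of all genes (1.73%). The antioxidant response element, TGACNNNGC or GCNNNGTCA, is shown in capitals for EPHX1 (chr1:225825251-225825309, plus strand), which rose with both 4-methoxychalcone and the gedunin derivative.
EPHX1: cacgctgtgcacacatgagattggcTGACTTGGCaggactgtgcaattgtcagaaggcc
It was present in 5 of 24 NRF2 targets (20.8%), in 7 of 26 heat shock genes (26.9%), in 1 of 13 NF-kB targets (7.69%) and in 13.2% of all genes of the table. A match is a description of the letters and not a measured site.

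The depth of the wells differed between the compounds. Total counts were between 672411 and 799631 in the DMSO wells and between 541647 and 894726 in the wells of dihydrocelastrol, pristimerin and the gedunin derivative. The 4-methoxychalcone wells held 232135 and 347785 counts, which were 0.303 and 0.506 of the median of their plates. The celastrol wells held only 45384 and 43487 counts, 0.0593 and 0.0633 of the plate medians, with 6599 and 5579 genes detected against 10766 to 11985 in the DMSO wells. A count of 3 was thereby worth 66.1 and 69.0 CPM (the count scaled to a common total per well) with celastrol, and a gene absent from these wells could have been present up to that level. In bulk samples, fewer cells of a type and less RNA per cell cannot be told apart. The 8 markers of mesenchymal glioblastoma cells summed to between 17916 and 25959 CPM over the compound wells and to between 22506 and 24306 CPM over the DMSO wells, and all 8 were detected in every group. The 12 markers of other cells summed to between 66.1 and 230.0 CPM in the compound wells and to between 82.5 and 205 CPM in the DMSO wells. Of these, 3 to 6 were detected with each compound and 5 in the DMSO wells, while KLK3, TMPRSS2, KRT19 and PTPRC were at 0 throughout. The keratin KRT5, on neither list, was at 507 and 736 CPM in the celastrol wells, on 23 and 32 counts. It was at 1524 CPM in a tirapazamine well of 17063 counts and at 8.62 to 212 CPM in the other shallow wells. How these reads came to be there was not tested.

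With 4-methoxychalcone, the heat shock genes rose together, and CRYAB and the inducible HSP70 genes rose the most. Of 9022 genes tested against DMSO, 982 were called at an adjusted p under 0.05 (10.9%), with 513 higher (5.69%) and 469 lower (5.2%). Of 28 heat shock targets tested, 23 rose and 0 fell, with a median log2 fold change of 2.20 over the list and of -0.11 over all genes.

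HSPA1B (chr6:31795515-31798031 on GRCh37), which encodes an inducible HSP70 chaperone, was at 3239 and 1679 CPM with 4-methoxychalcone on plates A and B. The DMSO wells were at 46.6, 26.9, 25.3 and 17.5 CPM and the untreated wells at 9.66 to 40.1 CPM. Both treated wells lay far above every control and were the highest of the 92 compound wells of their plates (log2 fold change 6.49 ± 0.23 (SE), adjusted p = 7.0e-34). Its near-identical neighbour HSPA1A held 181 counts in the treated wells and 1 count in the 4 DMSO wells, a ratio of 921 with a 95% counting interval from 163 to 36576. Reads of these neighbours can be assigned to either gene, so their split is uncertain. DNAJB1, an HSP40 cochaperone that loads clients onto HSP70, was at 6939.9 and 5952 CPM against 429.6, 416, 329 and 403 CPM in the DMSO wells (log2 fold change 4.11 ± 0.16 (SE), adjusted p = 1.7e-32). CRYAB, the small heat shock protein alphaB-crystallin, was at 2209.9 and 2208 CPM against 2.59, 1.42, 7.44 and 0 CPM (log2 fold change 9.64 ± 0.32 (SE), adjusted p = 3.8e-34). For both genes the treated wells agreed closely with each other and did not overlap with any control. HSPA6, an HSP70 gene that is silent in most unstressed cells, was at 892 and 362 CPM against 0 to 2.50 CPM (log2 fold change 8.72 ± 0.47 (SE), adjusted p = 4.5e-23). HSPH1, the nucleotide exchange factor HSP110, was at 986 and 1205 CPM against 55.0 to 78.9 CPM (log2 fold change 4.17 ± 0.22 (SE), adjusted p = 1.5e-24).

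**Figure D1:**
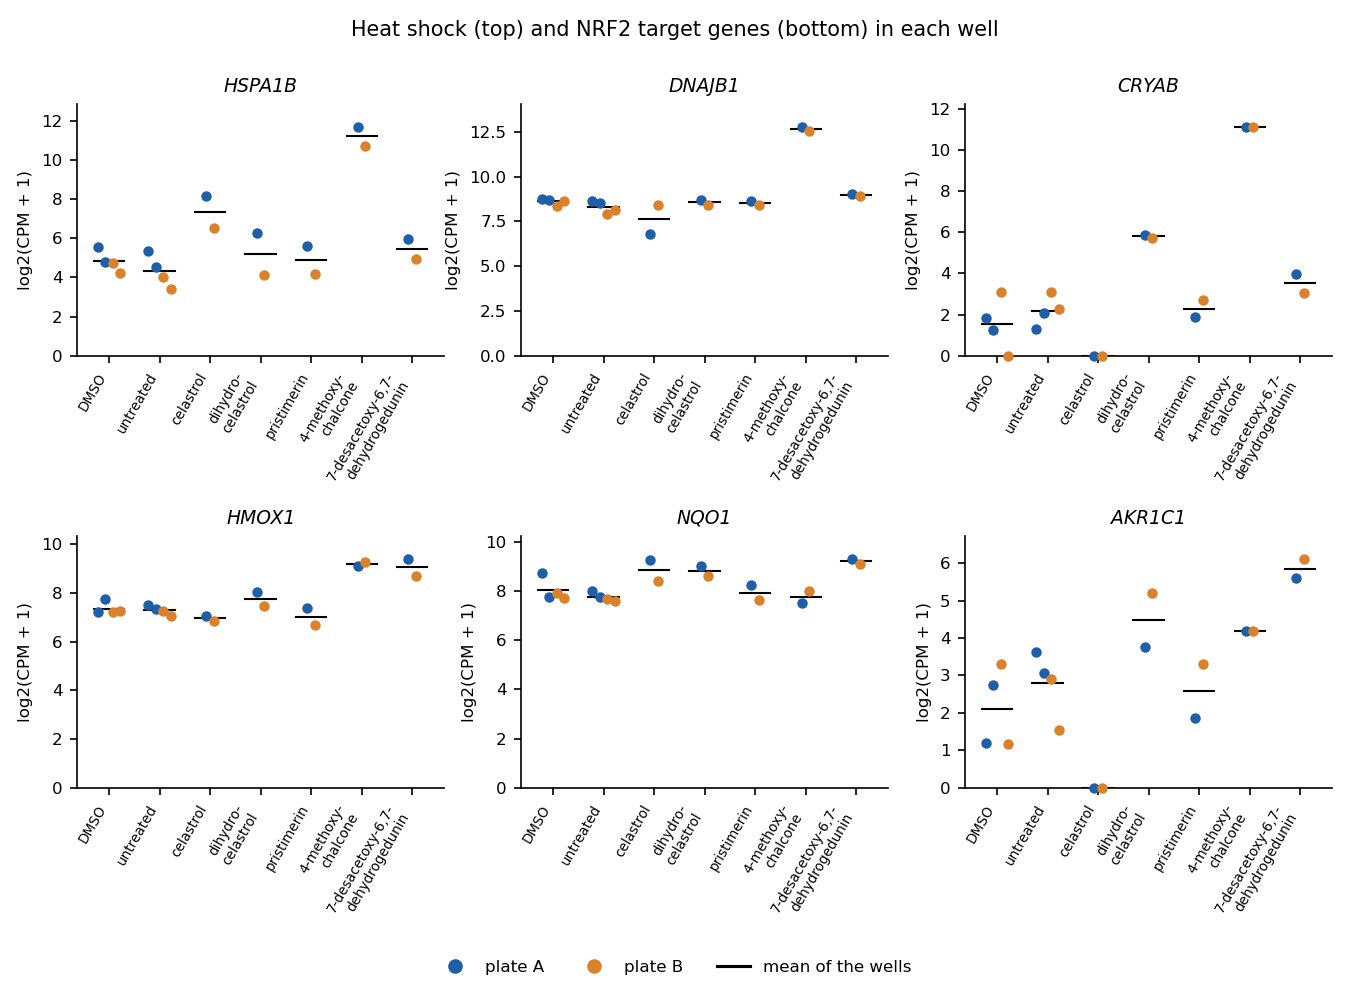
Level of 3 heat shock genes (top) and 3 NRF2 targets (bottom) in each well as log2(CPM + 1), with points coloured by plate and bars at the mean of the wells. The 4-methoxychalcone wells stand above all others for HSPA1B, DNAJB1 and CRYAB, and HMOX1 is highest with 4-methoxychalcone and 7-desacetoxy-6,7-dehydrogedunin.

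The rise reached genes that are expressed strongly without stress, with smaller fold changes. UBB, which encodes ubiquitin, rose by 2.60 on the log2 scale, and the cytosolic HSP90 genes HSP90AA1 and HSP90AB1 rose by 2.30 and 2.22. The genes named in this paragraph were chosen after their values were seen. BAG3, an HSP70 cochaperone of selective autophagy, was at 956 and 503 CPM against 67.5 to 102 CPM. The mitochondrial chaperonin HSPD1 was at 1460.4 and 1616 CPM against 559 to 859.7 CPM and rose by 1.22. The constitutive HSP70 gene HSPA8 was at 1736 and 1142 CPM against 623 to 963 CPM and rose by 0.93, less than the inducible genes. HSPE1, the partner of HSPD1, was at 775 and 1843 CPM on plates A and B. Its DMSO wells were at 353, 283, 1279 and 1339 CPM, the first pair on plate A, so each treated well was above the DMSO wells of its own plate while the groups overlapped across plates (0.95, adjusted p = 1.4e-04). The 5 members that did not pass were HSPA4L, HSPA1L, HSPB8, DNAJA1 and DNAJB6, and DNAJA1 was at 345 and 124 CPM against 51.3 to 261 CPM (0.81, adjusted p = 0.07). The count of heat shock genes that rose stayed between 17 and 24 over 16 alternative settings, and 20 of 21 rose when all wells were thinned to 43487 counts. A gene can pass the filter on low counts through the wells of 1 compound alone, so the genes tested include some that are high only there. With the wells of 1 compound and DMSO only, 26 members were tested for 4-methoxychalcone and 22 for pristimerin. The shares that rose are therefore of a list that the treated wells helped to choose. Against the other compound wells, where 705 of 10818 genes were called (6.52%), 403 higher (3.73%) and 302 lower (2.79%), 24 of 28 were higher.

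**Figure D2:**
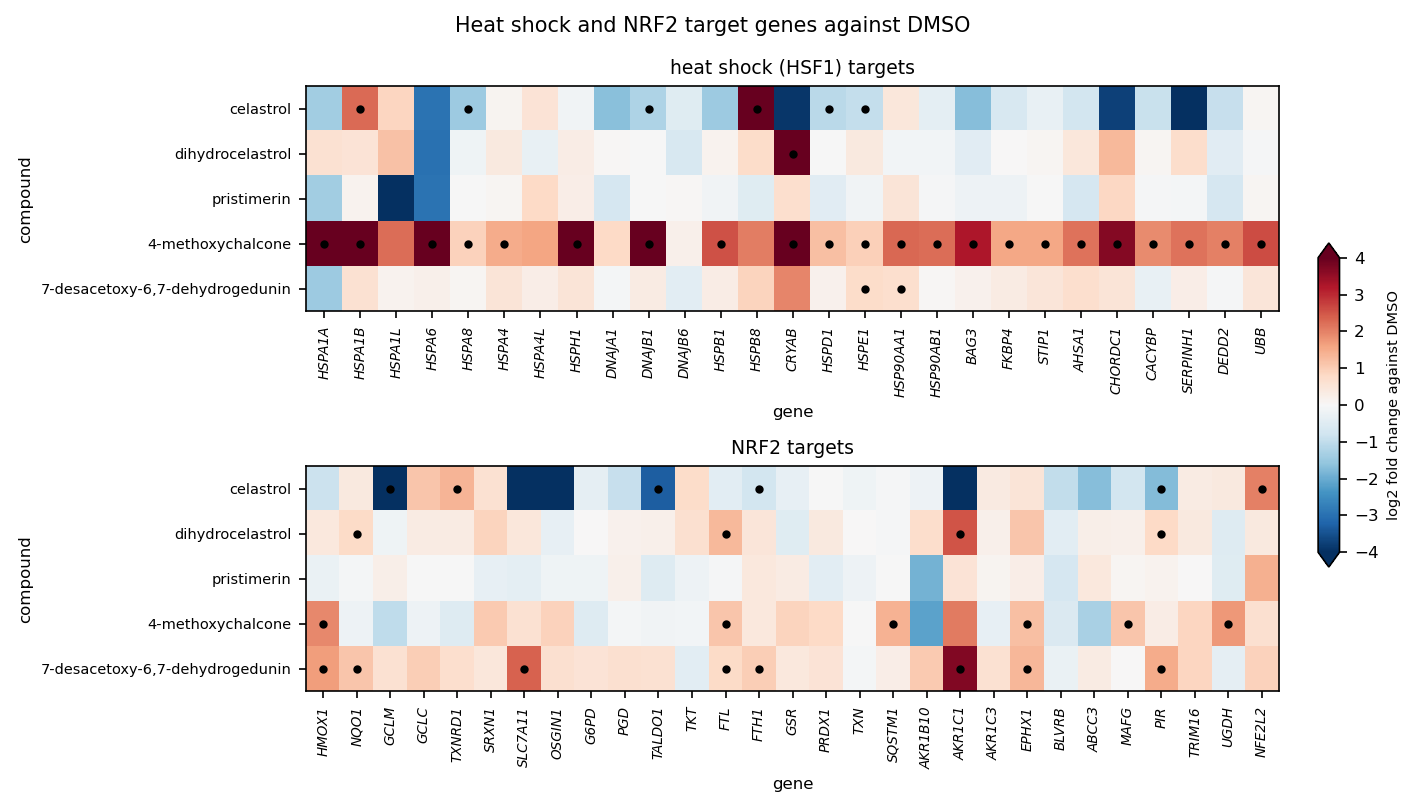
Log2 fold change against DMSO of tested heat shock targets (top) and NRF2 targets (bottom), with a column for each gene and a row for each compound, in colours clipped at the ends of the scale, with a black dot where the adjusted p was under 0.05. The 4-methoxychalcone row of the upper panel is mostly red with dots, and the pristimerin rows hold 0 dots.

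NRF2 targets changed in smaller number with 4-methoxychalcone, and HMOX1 led them. HMOX1 (chr22:35776354-35790207 on GRCh37), the heme oxygenase that is also a heat shock gene, was at 547 and 624 CPM against 149, 212, 149 and 153 CPM in the DMSO wells and 131 to 183 CPM in the untreated wells. Both treated wells were above every control, and they ranked 3 and 1 of the 92 compound wells (log2 fold change 1.93 ± 0.20 (SE), adjusted p = 2.0e-11). Of 29 NRF2 targets, 6 rose and 0 fell, with a list median of 0.42. The others that rose were FTL, the ferritin light chain (1.12, adjusted p = 2.9e-08), the autophagy receptor SQSTM1 (1.40, adjusted p = 3.6e-07), UGDH, EPHX1 and MAFG. NQO1, the quinone reductase most often used as an NRF2 marker, was not among them, at 181 and 256 CPM against 213 to 426 CPM (-0.20, adjusted p = 0.67). GCLM, a subunit of the enzyme that starts glutathione synthesis, was at 21.5 and 20.1 CPM against 30.0 to 58.2 CPM (-1.03, adjusted p = 0.18). Against the other compound wells, only HMOX1 and UGDH of 31 tested were called higher, and HMOX1 differed by 1.98 ± 0.35 (SE), adjusted p = 7.2e-06.

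Genes of the integrated stress response, in which ATF4 drives amino acid transport and synthesis, also rose. Of 25 ATF4 targets, 10 rose and 1 fell (median 0.81). SLC3A2, the heavy chain of amino acid exchangers, was at 978 and 871 CPM against 80.2, 85.0, 28.3 and 35.0 CPM (log2 fold change 4.22 ± 0.28 (SE), adjusted p = 9.8e-14). PPP1R15A, which recruits the phosphatase that ends the response, was at 1899.8 and 2070.2 CPM against 224 to 252 CPM (3.16, adjusted p = 1.3e-22). The transcription factors ATF3 (2.67, adjusted p = 8.3e-10) and DDIT3 (2.05, adjusted p = 9.3e-09) and the stress sensor SESN2 (1.95, adjusted p = 1.2e-04) rose too. STC2, a secreted stress glycoprotein on the same list, fell (-1.19, adjusted p = 3.8e-04). In the endoplasmic reticulum list, 3 of 16 rose, namely HSPA5 (1.89, adjusted p = 5.7e-11), HERPUD1 (2.38, adjusted p = 7.4e-06) and DNAJC3 (1.28, adjusted p = 0.022). The metallothionein MT1G was at 499.7 and 1535 CPM against 83.6 to 189 CPM and rose by 3.13, as the only 1 of 7 genes of its list to pass.

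Proliferation genes fell in part with 4-methoxychalcone. Of 23 tested, 11 fell and 1, UBE2C, rose (median -0.98). TOP2A, the topoisomerase of dividing cells, was at 51.7 and 25.9 CPM against 282, 303, 223 and 190.1 CPM and was the lowest of the 92 compound wells on both plates (log2 fold change -2.66 ± 0.32 (SE), adjusted p = 3.3e-09). AURKA (-1.76, adjusted p = 1.1e-06), CDK1 (-1.30, adjusted p = 0.0015), CCNB1 (-1.11, adjusted p = 0.0052) and CENPF (-1.25, adjusted p = 0.0052), which act at mitosis, fell as well. UBE2C, at 482 and 109 CPM against 43.8 to 278 CPM, overlapped with the DMSO wells. Of 16 NF-kB targets, NFKBIA (-1.77, adjusted p = 6.1e-07), IER3, LIF and BIRC3 fell and 0 rose. Without the plate A well 1 fell, and without the plate B well 2 fell and 1 rose. Among other lists, the cholesterol genes INSIG1 and FASN rose (2 of 15), the stress cytokine GDF15 was the 1 of 13 p53 targets to rise (2.48, adjusted p = 2.1e-06), and of 29 proteasome subunits PSMC4 rose and PSMD7, PSMA3 and PSMA5 fell.

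Outside the lists, RGS16, a regulator of G protein signalling, held 42 counts with 4-methoxychalcone and 1 count in the 4 DMSO wells, a ratio of 214 with a counting interval from 36.3 to 8639.6. The largest falls by fold change were of HILPDA and NIF3L1. HILPDA, a lipid droplet protein induced by hypoxia, held 2 counts against 375 (ratio 0.0271, interval 0.00327 to 0.0987), and NIF3L1 held 3 against 172 (ratio 0.0888, interval 0.0181 to 0.264). LEPREL4, HJURP and PTPMT1 followed, with log2 fold changes of -3.16, -3.04 and -2.88 on 4 counts each in the treated wells. The number of genes called fell from 982 to 598 without the plate A well and to 382 without the plate B well of 4-methoxychalcone, to 258 with the plate left out of the model and to 160 with all wells thinned. Over the alternatives, NRF2 targets that rose numbered 1 to 8, ATF4 targets that rose 2 to 10 and proliferation genes that fell 2 to 11. HSPA1B, DNAJB1, CRYAB, HMOX1, SLC3A2, NFKBIA and TOP2A were each called in the same direction in 16 of 16 alternatives.

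With 7-desacetoxy-6,7-dehydrogedunin, NRF2 targets rose and most heat shock genes did not pass the test. Against DMSO, 70 of 9022 genes were called (0.776%), with 30 higher (0.333%) and 40 lower (0.443%). Of 29 NRF2 targets, 8 rose and 0 fell, with a median of 0.65 over the list and of -0.02 over all genes. HMOX1 was at 674 and 415 CPM, above all DMSO wells (149 to 212 CPM), and ranked 1 and 3 of the 92 compound wells (log2 fold change 1.66 ± 0.20 (SE), adjusted p = 3.8e-08). AKR1C1, a ketosteroid reductase, was at 47.3 and 68.3 CPM against 1.29, 5.67, 8.92 and 1.25 CPM (log2 fold change 3.71 ± 0.62 (SE), adjusted p = 7.4e-05). SLC7A11, the cystine transporter that feeds glutathione synthesis, was at 159.9 and 92.3 CPM against 23.3, 35.4, 13.4 and 22.5 CPM (log2 fold change 2.36 ± 0.39 (SE), adjusted p = 6.0e-05). NQO1 was at 636 and 559 CPM against 426, 219.5, 241 and 213 CPM (log2 fold change 1.10 ± 0.20 (SE), adjusted p = 5.9e-04). For these 4 genes both treated wells lay above all 4 DMSO wells. PIR (1.47, adjusted p = 4.1e-06) and the ferritin genes FTH1 (0.99, adjusted p = 1.6e-05) and FTL (0.78, adjusted p = 6.6e-04) rose as well, as did EPHX1 (1.32, adjusted p = 0.03), whose promoter is shown above. AKR1C1 has close paralogs on the same list, so the assignment of its reads is uncertain.

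ALAS1, the first enzyme of heme synthesis, is on none of the lists and was at 113 and 155 CPM against 40.1, 43.9, 26.8 and 46.3 CPM (log2 fold change 1.72 ± 0.30 (SE), adjusted p = 2.3e-04). Of 28 heat shock genes, HSP90AA1 (0.66, adjusted p = 0.021) and HSPE1 (0.72, adjusted p = 0.027) rose, and the treated wells of both overlapped with the DMSO range. Both calls were lost in edgeR without either treated well, without DMSO replicate 2 and with the plate left out of the model. Neither gene was called with thinned counts or after subtraction of the same well number on another pair of U87 plates. At an unadjusted p under 0.05, 9 of the 28 were higher and 0 lower. Of all 9022 genes, 878 were under that p in either direction. The list median was 0.29 against -0.02 over all genes. HSPA1B was at 62.0 and 29.5 CPM (0.59, adjusted p = 0.54) and DNAJB1 at 527 and 487 CPM (0.33, adjusted p = 0.5). The largest falls were of CPA4, a secreted carboxypeptidase, at 26.1 and 14.8 CPM against 126, 135, 93.7 and 77.5 CPM (log2 fold change -2.43 ± 0.36 (SE), adjusted p = 5.1e-06), where both treated wells were the lowest of the 92. ST8SIA5 (from 72.9 to 120.1 CPM in the DMSO wells to 29.4 and 20.3 CPM), IGFBP1 (-1.72, adjusted p = 0.013), PRKAA2 (-1.52, adjusted p = 0.03) and RNF126 (-1.47, adjusted p = 0.034) followed. STC2 fell, from 275 to 314 CPM in the DMSO wells to 189 and 81.2 CPM (-1.24, adjusted p = 4.6e-04), as did CALR and PSMA1 of the reticulum and proteasome lists.

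Several of these calls depended on the fit. Of the 8 NRF2 calls, 1 was left with the plate out of the model, 4 of 11 tested with thinned counts and 2, NQO1 and HMOX1, after the same well number on another pair of U87 plates was subtracted. That well held olaparib, and HMOX1 there differed from the other wells of its plates by 1.03 and 0.21 on the log2 scale. HMOX1 was called in 16 of 16 alternatives, with log2 fold changes from 1.41 to 1.86. Against the other compound wells, 6 of 10818 genes were called (0.0555%), among them HMOX1 (1.77 ± 0.35 (SE), adjusted p = 0.0093) and STC2 (-1.36 ± 0.30 (SE), adjusted p = 0.034), but edgeR called 0 genes in that comparison without either treated well. The number of genes called against DMSO was 32 without the plate A well and 14 without the plate B well, and the NRF2 calls were 7 and 5.

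Dihydrocelastrol was accompanied by lower NF-kB targets and by a rise of CRYAB, while the other heat shock genes did not pass the test. Against DMSO, 117 of 9022 genes were called (1.3%), with 56 higher (0.621%) and 61 lower (0.676%). Of 16 NF-kB targets, 10 fell and 0 rose, with a median of -1.85 over the list and of -0.03 over all genes. NFKBIA, the inhibitor that NF-kB itself induces, was at 173 and 71.2 CPM against 576, 497, 262 and 321 CPM (log2 fold change -1.78 ± 0.23 (SE), adjusted p = 1.4e-07). ICAM1, an adhesion molecule for leukocytes, was at 6.25 and 3.50 CPM against 40.1, 63.7, 31.2 and 43.8 CPM, and both wells were the lowest of the 92 (log2 fold change -3.17 ± 0.55 (SE), adjusted p = 1.5e-04). The chemokine CXCL3 was at 13.8 and 10.5 CPM against 85.4, 92.1, 44.6 and 53.8 CPM (log2 fold change -2.44 ± 0.39 (SE), adjusted p = 3.6e-05). The cytokine LIF was at 23.8 and 11.7 CPM against 111, 129, 56.5 and 55.0 CPM (log2 fold change -2.29 ± 0.36 (SE), adjusted p = 2.4e-05). For these 4 genes no treated well overlapped with a DMSO well.

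IL8 was at 225 and 51.4 CPM against 474, 608, 128 and 144 CPM (-1.29, adjusted p = 4.8e-05) and IL1B at 664 and 343 CPM against 1423, 1435, 583 and 657 CPM (-0.95, adjusted p = 6.0e-05). Both fell relative to the DMSO wells of the same plate, and their plate A wells overlapped with the DMSO wells of plate B. In the DMSO wells both genes were higher on plate A. BIRC3, IL6, CXCL2 and CCL2, named after their values were seen, made up the 10. CCL2 was at 63.8 and 75.9 CPM against 85.4 to 186 CPM in the DMSO wells and 81.1 to 113 CPM in the untreated wells (-1.07, adjusted p = 0.024). IL6 rested on 11 and 1 counts and BIRC3 on 10 and 2. NFKB1, NFKB2, RELB, SOD2, TNFAIP3 and IER3 did not pass, and NFKB2 was at 10.0 and 4.67 CPM against 13.4 to 40.0 CPM (-1.98, adjusted p = 0.066). The 10 calls were 8 without the plate A well, 7 without the plate B well, 9 after subtraction of the same well number and 2 with the plate left out of the model, and edgeR called 0 of 5 tested with thinned counts. With all wells and counts, 12 of the 16 were lower at an unadjusted p under 0.05. Of all 9022 genes, 850 were under that p in either direction. ICAM1 and CXCL3 were called in 15 of 15 alternatives that tested them, of 16 in all. They were not among the 5 targets tested with thinned counts. Against the other compound wells, where 5 of 10818 genes were called (0.0462%) and 2 were lower (0.0185%), NFKBIA (-1.72 ± 0.32 (SE), adjusted p = 6.7e-04) and BIRC3 (-2.56 ± 0.59 (SE), adjusted p = 0.0496) were lower, and ICAM1 did not pass, at -2.90 ± 0.68 (SE), adjusted p = 0.0504.

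**Figure D3:**
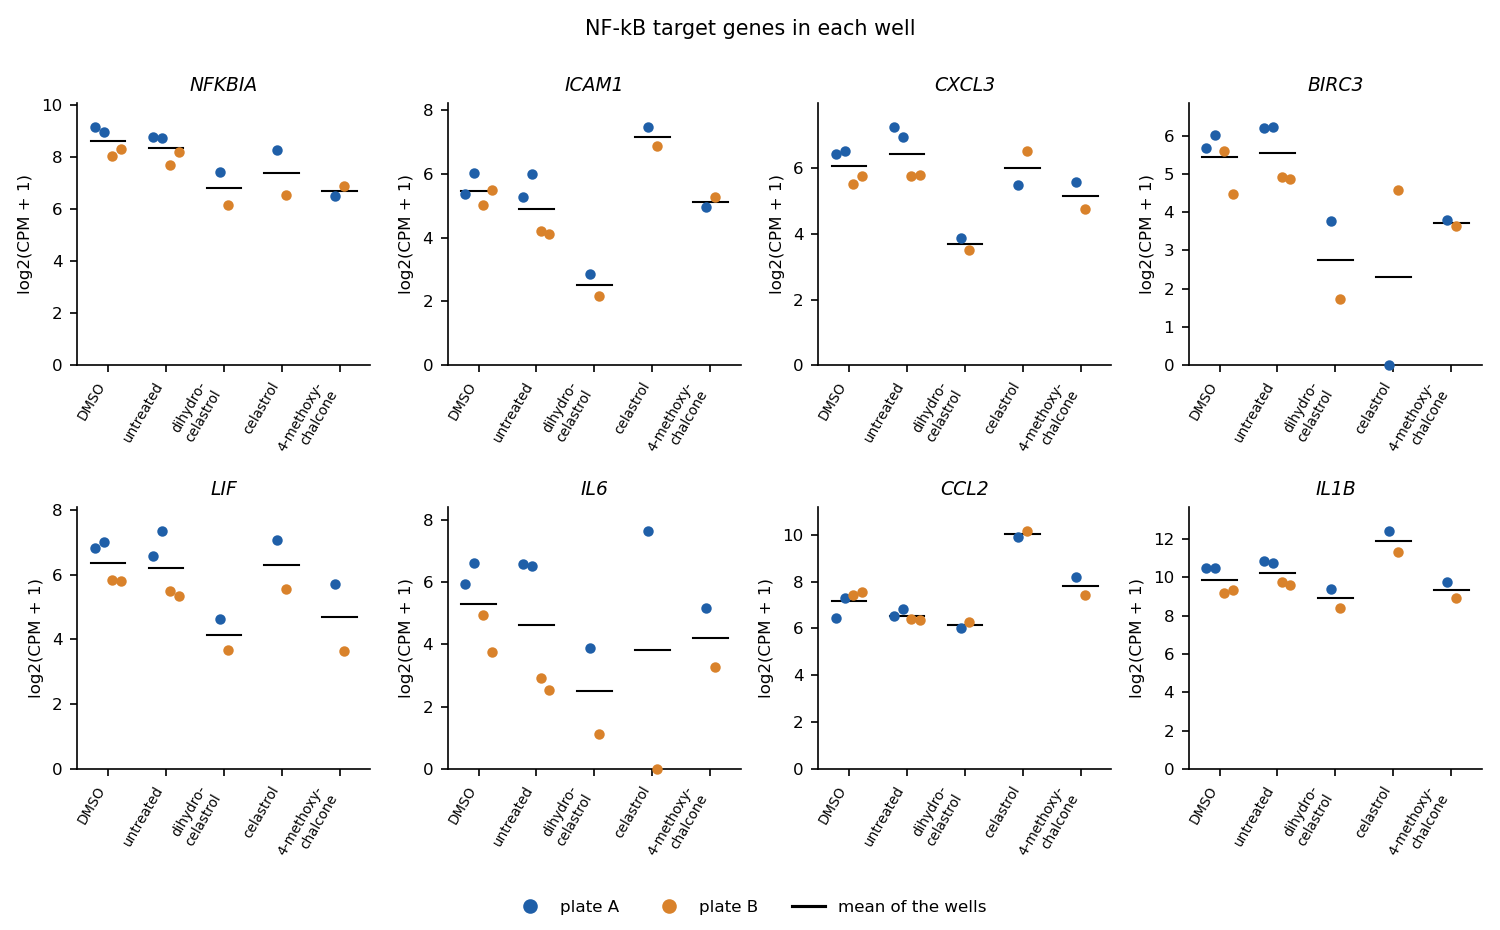
Level of 8 NF-kB targets in each well as log2(CPM + 1), with points coloured by plate and bars at the mean of the wells. The dihydrocelastrol wells lie below the DMSO wells for NFKBIA, ICAM1, CXCL3, BIRC3, LIF and CCL2, and the celastrol wells lie above them for CCL2 and IL1B.

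CRYAB was at 57.5 and 52.5 CPM with dihydrocelastrol against 2.59, 1.42, 7.44 and 0 CPM, and these wells ranked 3 and 2 of the 92 behind 4-methoxychalcone (log2 fold change 4.27 ± 0.42 (SE), adjusted p = 1.2e-10). It was also called against the other compound wells (3.41 ± 0.50 (SE), adjusted p = 1.7e-06). It was the 1 of 28 heat shock genes to pass, while HSPA1B was at 75.0 and 16.3 CPM (0.55, adjusted p = 0.56), with the plate A well above and the plate B well below every DMSO well. Of 29 NRF2 targets, 4 rose and 0 fell (median 0.33), and the 4 calls became 2 without the plate A well, 1 without the plate B well, 1 after subtraction of the same well number and 0 by edgeR with the plate left out of the model. FTL was at 4748 and 5607 CPM against 1823 to 2499.9 CPM (log2 fold change 1.31 ± 0.14 (SE), adjusted p = 2.9e-09), AKR1C1 at 12.5 and 36.2 CPM (2.50, adjusted p = 0.029) and NQO1 at 522 and 394 CPM (0.77, adjusted p = 0.036), and PIR was the fourth (0.79, adjusted p = 0.046). HMOX1 was at 261 and 173.9 CPM (0.41, adjusted p = 0.53) and overlapped with the DMSO wells. SLC3A2 was at 318 and 235 CPM (log2 fold change 2.40 ± 0.29 (SE), adjusted p = 9.5e-07) and was the 1 of 25 ATF4 targets to rise. The metallothioneins MT1E (0.75, adjusted p = 0.0052) and MT1G (0.86, adjusted p = 0.048) rose.

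The other named rises with dihydrocelastrol were PLXNB2 (1.84, adjusted p = 0.038) and EIF2A (1.65, adjusted p = 4.0e-04). The other named falls were SETD5 (-2.05, adjusted p = 4.3e-04), MLL3 (-1.97, adjusted p = 0.0029) and POU2F2 (-1.88, adjusted p = 1.3e-07). EIF2A and SETD5 stood at -0.01, adjusted p = 1.00 and 0.31, adjusted p = 1.00 after subtraction of the same well number, which held cytarabine on the other plates, and POU2F2 at -1.83, adjusted p = 4.9e-06. SETD5 was at 25.0 and 24.5 CPM against 60.9 to 151 CPM in the DMSO wells and 23.2 to 47.2 CPM in the untreated wells, so its treated wells lay within the untreated range. The number of genes called was 56 without the plate A well and 26 without the plate B well, and 0 and 3 against the other compound wells in place of 5.

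With pristimerin, at the lowest dose of the 5, 81 of 9022 genes were called against DMSO (0.898%), with 52 higher (0.576%) and 29 lower (0.321%), and neither heat shock nor NRF2 targets were among them. Of 28 heat shock targets 0 were called by edgeR, with 1 higher and 4 lower at an unadjusted p under 0.05, and DESeq2 called 1. Of 29 NRF2 targets 0 were called, with 2 higher and 1 lower at an unadjusted p under 0.05, and DESeq2 called 1. Of all 9022 genes, 784 were under that p in either direction. The medians of the lists, -0.04 and -0.02, were near that of all genes at -0.04. HMOX1 was at 166 and 102 CPM (-0.27, adjusted p = 0.82) and HSPA1B at 47.5 and 16.8 CPM (0.14, adjusted p = 0.96). The HMOX1 wells lay within and below the DMSO range, and the HSPA1B wells just above and just below it.

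The genes with the largest rise were HMGN2, a nucleosome-binding protein, at 125 and 32.4 CPM against 15.5, 9.91, 4.46 and 11.3 CPM (log2 fold change 2.82 ± 0.48 (SE), adjusted p = 1.6e-04), the histone methyltransferase SETD8 (2.02, adjusted p = 0.013), the splicing factor SFPQ (1.96, adjusted p = 2.0e-05), SMC5 (1.94, adjusted p = 1.1e-04) and GTF2F2 (1.88, adjusted p = 0.0017). The largest falls were of TXLNA (-2.01, adjusted p = 1.8e-04), KLC1 (-1.68, adjusted p = 0.0064), ECH1 (-1.68, adjusted p = 1.1e-04), ELF4 (-1.62, adjusted p = 0.028) and SLC39A3 (-1.59, adjusted p = 0.013). MT2A, a zinc-binding metallothionein, was at 62688 and 142473 CPM against 19232, 26405, 23310.1 and 38983 CPM (1.87, adjusted p = 0.015), and its wells ranked 23 and 26 of the 92. Many of the higher genes were also high at the same well number elsewhere. The same well number on another pair of U87 plates held mitomycin C. There, 35 of the 52 higher genes were more than 0.5 above the other wells on the log2 scale. Of all 9022 genes tested against DMSO, 13.3% were. HMGN2 was higher there by 1.48 and 3.09. After that difference was subtracted 5 genes were called, and 0 of the 81 were among them. The subtracted well carries its own compound's response, and the part of the barcode in these calls was not tested. The count was 49 without the plate A well, 8 without the plate B well and 42 without DMSO replicate 4, and 39 of 10818 genes (0.361%), 37 higher (0.342%) and 2 lower (0.0185%), were called against the other compound wells, or 6 and 2 without either pristimerin well.

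Celastrol, the parent of the triterpenes, had the shallowest wells of the 5, and its values rest on few counts. Against DMSO, 828 of 9022 genes were called (9.18%), with 213 higher (2.36%) and 615 lower (6.82%). The split turned with the scaling, to 301 higher and 218 lower with RLE normalization. The median of all genes was -0.65 with TMM and -0.29 with RLE. It was -0.02 when the 1805 genes with a group at 0 counts were placed at the bound that 3 counts allow. Those whose bound left no difference in their direction were set to 0, which moves the median toward 0 by construction. Of the 213 higher genes, 179 on plate A and 162 on plate B had a raw count at or below the median raw count of the plate, with a median of 10 and 7 counts against 26 and 15. The same genes were also higher in the other wells of very low depth, by a median of 1.25 and 1.54 on the log2 scale in the wells of a quinone inhibitor of CDC25 phosphatases (51889 and 43009 counts) and by 1.43 in a tirapazamine well (17063 counts). In the celastrol wells, which chose these genes, the medians were 2.75 and 2.62, and the part of depth in these calls was not tested. The filter on low counts works on CPM, so genes near absent elsewhere could pass it through the shallow celastrol wells alone. Of the heat shock targets, 28 were tested with these wells in the fit and 26 without them. How many of the called genes entered in this way was not tested.

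HSPA1B was at 286 and 92.0 CPM with celastrol, on 13 and 4 counts, and both wells lay above the DMSO range of 17.5 to 46.6 CPM (log2 fold change 2.27 ± 0.46 (SE), adjusted p = 3.3e-04). They ranked 2 and 4 of the 92, beside the same quinone, which ranked 3 on both plates at 251 and 163 CPM on 13 and 7 counts. On plate B the tirapazamine well ranked 2, at 176 CPM on 3 counts. All of these wells were of very low depth, and the part of depth in these ranks was not tested. The call was lost without the plate A well (1.85, adjusted p = 0.30). Of 28 heat shock targets, HSPA1B and HSPB8 rose and 5 fell, among them HSPA8, HSPD1, DNAJB1 and HSPE1, and HSPB8 rested on 4 and 2 counts. With RLE 3 rose and 2 fell. The median of the list was -0.91, or -0.34 with absent genes at their bound, or at 0 where that bound left no difference. DNAJB1, at 110.2 and 345 CPM against 329 to 429.6 CPM, had 1 of 2 wells within the DMSO range and was not called with RLE or without the plate A well. HSPA8 was at 441 and 345 CPM against 623 to 963 CPM (-1.44, adjusted p = 9.7e-06). HMOX1 was at 132 and 115 CPM, below the DMSO wells but not called (-0.85, adjusted p = 0.19). Of 29 NRF2 targets, TXNRD1 and NFE2L2 rose and TALDO1, FTH1, PIR and GCLM fell, and NFE2L2 had 10 and 0 counts. The 4 falls were lost with RLE and with DESeq2, where 2 targets rose and 0 fell, and 1 fell without either celastrol well.

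A few genes with more counts rose in the celastrol wells under every alternative tried. CCL2, a monocyte chemokine, was at 947 and 1149.8 CPM on 43 and 50 counts against 85.4, 159, 173 and 186 CPM (log2 fold change 2.36 ± 0.28 (SE), adjusted p = 2.1e-09). IL1B, an inflammatory cytokine, was at 5531 and 2598 CPM on 251 and 113 counts against 1423, 1435, 583 and 657 CPM (log2 fold change 1.58 ± 0.15 (SE), adjusted p = 3.9e-12). Both genes were the highest of the 92 compound wells on both plates, and they were the 2 of 16 NF-kB targets that rose, while NFKBIA fell (-1.45, adjusted p = 0.003) and was not called in 5 of 15 alternatives. PSMD11, a subunit of the proteasome lid, was at 2732 and 1932 CPM against 454, 319, 583 and 409 CPM (log2 fold change 1.98 ± 0.20 (SE), adjusted p = 7.1e-11), while 11 of 29 proteasome subunits fell and the median of that list was -0.94. CCL2, IL1B and PSMD11 were each called in 15 of 15 alternatives, thinned wells included.

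The largest named rises were SCG3 (6 and 5 counts, 5.91, adjusted p = 1.0e-04), ABHD3 (16 and 13 counts, 5.43, adjusted p = 2.4e-08), IGFBPL1 (6 and 8 counts, 5.30, adjusted p = 5.9e-05), S100A8 (5 and 2 counts, 5.23, adjusted p = 0.0028) and INSM1. INSM1 held 5 counts against 3 in the DMSO wells, a ratio of 55.3 with a counting interval from 10.8 to 356. The largest falls were of genes with 0 counts in both celastrol wells, and their folds are bounds on 3 counts over the group. P4HA2, a collagen prolyl hydroxylase, was at least 7.21-fold lower, ST3GAL1 at least 4.04-fold, ARHGAP31 at least 3.15-fold, MICAL2 at least 3.15-fold and STX1A at least 3.12-fold. Among the markers of U87 cells, S100A6 (-1.36, adjusted p = 7.8e-12), ANXA2 (-1.83, adjusted p = 3.3e-08) and SPARC (-1.81, adjusted p = 1.8e-04) fell, and VIM was at 0.12 and FN1 at -0.54 without passing. The number of genes called was 415 without the plate A well and 458 without the plate B well, and 217 with all wells thinned. Against the other compound wells 795 of 10818 genes were called (7.35%), with 235 higher (2.17%) and 560 lower (5.18%), or 374 and 92 with RLE, and 280 and 301 genes without either well.

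**Figure D4:**
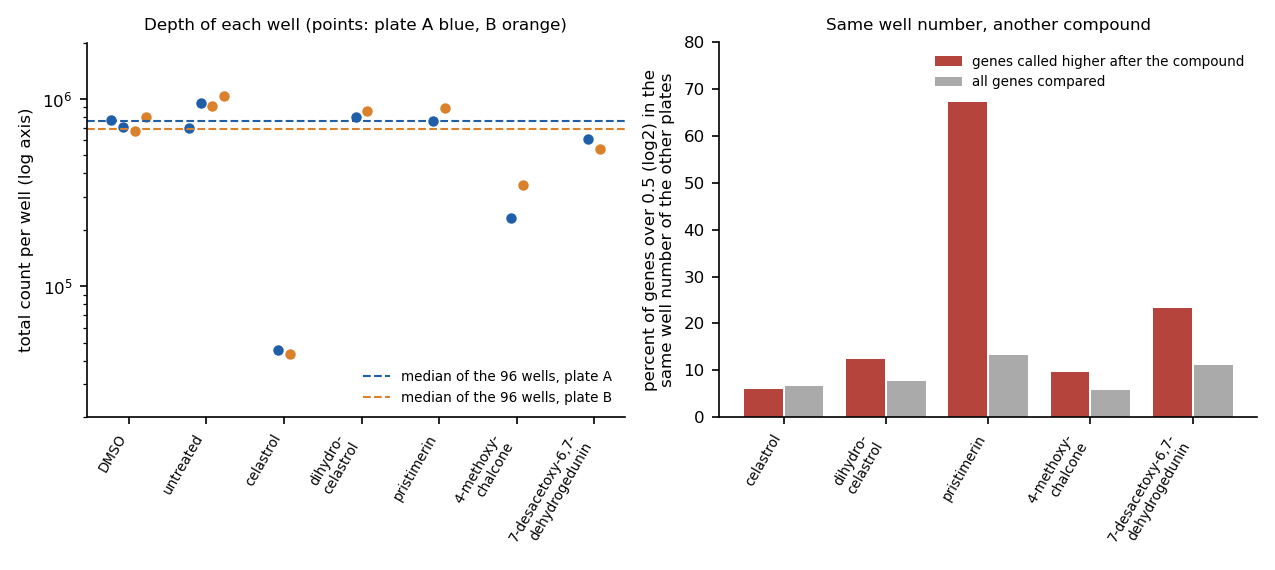
Left, total count of each well of the 5 compounds and the controls on a log axis, with points coloured by plate and the median of each plate dashed; right, percent of the genes called higher with each compound (red) and of all genes (grey) that were more than 0.5 above the other wells (log2) in the same well number of another pair of plates. The celastrol wells hold 45384 and 43487 counts, and the pristimerin genes stand out on the right with 35 of 52 higher there.

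The levels of both marker genes can be set side by side, but 0 of the 10 pairs of compounds shared a dose, so no pair was compared by a test. In order of dose, the mean over wells for HSPA1B was 32.1 CPM with 0.85501 µM pristimerin, 45.8 CPM with 2.0009 µM of the gedunin derivative, 189 CPM with 8.3691 µM celastrol, 45.7 CPM with 9.1864 µM dihydrocelastrol and 2459 CPM with 9.8678 µM 4-methoxychalcone. For HMOX1 these means were 134, 545, 124, 218 and 586 CPM. The DMSO means were 29.1 CPM for HSPA1B and 166 CPM for HMOX1 over 4 wells. Among the 87 other compounds on these plates, HMOX1 was highest in the wells of ryuvidine, also a quinone, at 673 and 476 CPM, and next in the IKK 16 wells at 432 and 415 CPM. The quinone inhibitor of CDC25 phosphatases, with shallow wells, was at 212 and 209 CPM. Lower levels were found for 3 other quinones on the same plates. Thymoquinone was at 121 and 131 CPM, plumbagin at 116 and 83.7 CPM and 2,6-dimethoxyquinone at 118 and 65.4 CPM for HMOX1, against DMSO means of 181 and 151 CPM on plates A and B.

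The agreement of the duplicate wells differed as well. Each well was compared with the DMSO wells of its own plate, which all compounds on that plate shared. Across 9022 genes, the differences on plates A and B had a Pearson correlation of 0.368 with 4-methoxychalcone. That correlation ranked 8 of the 92 compounds. It was 0.201 with pristimerin, 0.194 with dihydrocelastrol, 0.189 with the gedunin derivative and 0.180 with celastrol, and the median over all compounds was 0.189 (range 0.0403 to 0.489). The points of each correlation are genes, which are not independent, and both wells shared a well number and barcode.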

How the data were processed

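PLATE-Seq counts of U87 cells treated for 24 h were analysed on the pair of plates that held the 5 compounds. The authors assigned reads to wells by barcode, aligned them with BWA (hg19, per the submitters' notes) and deposited raw counts of uniquely mapped reads for 23710 gene symbols, without normalization, and 92 spike-in sequences were left out here. Counts were taken from 18 wells (10 compound, 4 DMSO and 4 untreated wells) and fitted together in edgeR 4.0.16 (R 4.3.3) by robust quasi-likelihood with TMM scaling, the default filter on low counts and terms for group and plate. A gene could pass that filter through the wells of 1 group alone. Each compound was contrasted with DMSO over 9022 genes. In a second fit of all 192 wells, it was contrasted with the wells of the 87 other compounds over 10818 genes. These 174 wells formed 1 group in that fit, so its spread includes that between compounds. The other compounds entered it as pairs of wells, so the wells are not fully independent. Benjamini-Hochberg adjusted p-values under 0.05 were called. CPM values are raw counts scaled to 1 common well total. Wells under 0.5 times the plate median total were taken as shallow. A gene at 0 was bounded at 3 counts over the group. In medians with bounds, its log2 fold change was set to 0 where that bound left no difference in its direction. Intervals and floors cover counting error only, since reads had no molecular identifiers.

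The members, gene lists and tests were chosen with earlier results of these data known. Genes named were HMOX1 and HSPA1B, then for each compound the 5 largest rises and 5 largest falls among called genes with a mean of 50 CPM or more in whichever group was higher and with both wells outside the DMSO range, then up to 6 called members of each list by smallest p, and others only where stated. Some named genes are not reported here, but stay in the counts. Same-plate wells of different groups deviated together in 21 of 21 pairs of groups (correlations 0.138 to 0.585), so the plate term was kept as the block. Alternatives were DESeq2 1.42.0, RLE scaling, no filter, other controls or fewer wells in the fit, no plate term, no abundant genes and each well left out. Thinning all wells to 43487 counts, leaving celastrol out of the fit and subtracting the same well number on the other U87 plates were added after seeing the data. The procedure was tested on counts simulated from the DMSO profile, without differences between plates. Changes were placed only in genes above a set DMSO level, so genes near absent there were not covered. Promoters came from RefSeq (GRCh38.p14) and gene positions from GENCODE on GRCh37. Tables and plots used Python 3.11.15 with numpy 2.4.6, pandas 2.3.3 and matplotlib 3.10.9.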

Additional observations from a re-analysis of the deposited data

Results flagged for a closer look

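Of 100 values of named genes tested in the groups of 4 control wells, 6 were set apart by 1 well far from the other 3. The rule is set to flag about 1 in 20 continuous values by chance. It always flags a lone count beside 3 wells at 0, so that share does not apply to such values. HMOX1 was at 212 CPM in a DMSO well of plate A against 149 to 153 CPM in the others. HSPA1A was at 1.29 CPM in 1 DMSO well and at 1.06 CPM in 1 untreated well, and at 0 in the others. RGS16 was at 1.42 CPM in 1 DMSO well and at 0 in the others. INSM1 was at 0 in 1 DMSO well and between 1.29 and 1.49 CPM in the others. S100A8 was at 7.16 CPM in 1 untreated well and between 1.09 and 2.11 CPM in the others. Apart from HMOX1 and the untreated S100A8 well, these values are single counts.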

How the results depend on the processing

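The 266 values recomputed under alternatives were the numbers of genes called and the HMOX1 and HSPA1B log2 fold changes. No gene list and no other gene was among them. Of these values, 208 kept their direction and side of the threshold (or stayed within 1.5 times a count) and 49 counts moved further. Besides, 1 call was lost and 8 values turned in direction, all uncalled in both fits. List calls also moved. With the plate left out of the model, NRF2 calls of the gedunin derivative went from 8 to 1. NF-kB calls of dihydrocelastrol went from 10 to 2, and heat shock calls of 4-methoxychalcone from 23 to 17. HSPA1B turned with thinned wells for dihydrocelastrol (0.55 to -0.87), pristimerin (0.14 to -0.87) and the gedunin derivative (0.59 to -1.77), without the dihydrocelastrol plate A well (-0.17, with -0.17 to 0.90 over all wells left out) and, for pristimerin, without DMSO replicate 2 (-0.061, with -0.061 to 0.28). HMOX1 turned for pristimerin (-0.27) with thinned wells (0.41) and minus the same well number (0.77), and for celastrol (-0.85) minus the same well number (0.10). In the order celastrol, dihydrocelastrol, pristimerin, 4-methoxychalcone and 7-desacetoxy-6,7-dehydrogedunin, the counts against DMSO were 828, 117, 81, 982 and 70. Without the replicate block (plate left out) they were 262, 4, 0, 258 and 2, where the 0 of pristimerin is by edgeR and DESeq2 with the plate called 123. Thinned to the shallowest well they were 217, 15, 7, 160 and 14, and minus the same well number 455, 25, 5, 307 and 6. Leaving out 1 well at a time gave 415 to 752, 26 to 113, 8 to 74, 382 to 857 and 14 to 65. RLE gave 519 for celastrol, DESeq2 gave 123 for pristimerin and 131 for the gedunin derivative, and DMSO with untreated wells gave 58 for dihydrocelastrol and 35 for pristimerin. The HSPA1B call of celastrol was lost without its plate A well (1.85, with 1.85 to 2.45 over all wells left out). Against the other compound wells the counts were 795, 5, 39, 705 and 6. Without the plate term they were 3, 8 and 1 for dihydrocelastrol, pristimerin and the gedunin derivative, and without the filter 17, 66 and 16. RLE gave 466 for celastrol, leaving out shallow wells gave 413 for 4-methoxychalcone, and leaving out either well of the compound gave 280 to 301, 0 to 3, 2 to 6, 237 to 363 and 0 to 0. The cause of these shifts was not tested, except that thinning and left-out wells lower the counts by construction. Where a left-out well leaves a compound with 1 well, that well is assumed to vary like the other groups. The depth of the celastrol wells, where 3 counts are 66.1 and 69.0 CPM, limits every statement on genes below that level.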

Other observations

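On another pair of U87 plates, normalized separately and not compared by a test, the proteasome inhibitor bortezomib at 0.01 µM had HSPA1B at 498 and 70.7 CPM, against DMSO means of 107 and 14.7 CPM, and these wells ranked 1 on both plates. CRYAB was at 202 and 74.4 CPM there (DMSO means 34.4 and 23.9 CPM) and HMOX1 at 209 and 218 CPM (DMSO means 141 and 111 CPM). Carfilzomib at 0.0038 µM had HSPA1B at 220 and 29.1 CPM and HMOX1 at 98.02 and 81.8 CPM, and ixazomib at 0.036 µM had HSPA1B at 105 and 19.8 CPM and HMOX1 at 56.9 and 52.8 CPM. Arsenic trioxide at 0.4 µM, which also binds thiols, had HSPA1B at 130 and 9.01 CPM and HMOX1 at 127 and 126 CPM.

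Spike-in counts differed between even and odd well numbers. The median was 366.5 and 261 counts in even wells and 23.5 and 23 counts in odd wells of plates A and B, and odd wells held 9.51% and 14.5% of all spike-in counts. The methods add spike-ins to a subset of wells only. The celastrol, dihydrocelastrol, pristimerin and 4-methoxychalcone wells have odd numbers. Spike-in counts were 74 and 81 with celastrol, whose totals were 0.0593 and 0.0633 of the plate medians. They were 105 and 106 with pristimerin, and 4 and 1 with both dihydrocelastrol and 4-methoxychalcone. How these counts came to be in odd wells, and whether other reads did so, was not tested.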
